A study of Homo sapiens with 4 samples.

Results

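Solute carriers are membrane proteins that move nutrients, ions and metabolites into cells, out of cells and between compartments, and their genes carry symbols built from SLC, a family number, the letter A and a member number. The genes with a symbol that begins in this way were taken from the RNA immunoprecipitation sequencing (RIP-seq) tables, and they numbered 184 of 13300 gene names, with 488 of the 34975 listed transcripts. The choice among the listed genes rested on the letters of the symbol. A transcript was listed only where the mean of a group reached 0.5 FPKM, so which genes could be chosen depends on measured values. By site, 79 were classed as plasma membrane transporters, 38 as mitochondrial carriers of the SLC25 family and 42 as transporters of other organelles or of mixed location. A further 19 were left without a class. The remaining 6 had symbols that go on beyond the pattern: SLC9A3R1, SLC9A3R2, SLC7A6OS, SLC2A4RG, SLC4A1AP and SLC44A3-AS1, which are scaffold, regulatory, neighbouring or antisense genes and not carriers. Related transporters with another letter in the symbol, such as SLC35B1, lie outside the pattern.

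RNA was precipitated from HCCLM3 cells, an established human hepatocellular carcinoma line, with an antibody against KIAA1429 (KIAA1429 RIP) or with normal IgG (IgG RIP) as the control. KIAA1429, also called VIRMA, is a subunit of the complex that places N6-methyladenosine (m6A) on mRNA, and the comparison asks which mRNAs are found with it. Each group held 2 libraries, labelled replicate 1 and replicate 2, and nothing in the labels says that these came from separate cultures, so the p-values measure only the spread between these libraries, which may be technical. An input library was not analysed here, both groups are precipitates of 1 cell line, and in bulk RNA fewer cells of a kind and less RNA per cell cannot be told apart. The values are FPKM, read fragments scaled to the length of the transcript and to the number of mapped fragments in the library. A gene total adds up the FPKM of all transcripts listed under 1 gene name. Below, values are given as replicate 1 and then replicate 2, and those of the IgG RIP and KIAA1429 RIP libraries are written as values with IgG and with KIAA1429.

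The liver genes ALB and AFP and the epithelial keratins KRT8 and KRT18 lay between 53.5 and 1048 FPKM in every library, as a check of the labelled cell type, whereas HNF4A, a liver transcription factor, stayed between 0.305 and 1.11 FPKM. PTPRC, COL1A1, COL1A2, PECAM1 and VWF, which mark leukocytes, fibroblasts and endothelium, were not among the listed genes, and CD68, a macrophage marker, lay between 28.7 and 72.2 FPKM. The summed FPKM of all listed transcripts lay between 295573 and 340300 per library, and the solute carrier genes made up 0.968% and 0.939% of it with IgG and 0.806% and 0.875% of it with KIAA1429. That share was lower in both KIAA1429 RIP libraries. Sequencing depth is unknown from FPKM, so no counting error can be given.

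In a cell, plasma membrane carriers bring in glucose, amino acids, phosphate and metals and release lactate, and many work as pairs of a transport chain and a helper chain. The SLC25 proteins sit in the inner mitochondrial membrane, are made in the cytosol and imported, and exchange ADP for ATP or carry phosphate, citrate, aspartate and cofactors. In liver, solute carriers also take up bile acids, fatty acids and iron, and the complex that holds KIAA1429 is known to place m6A most often near stop codons and in 3′ UTRs, within a sequence whose core is often GGAC.

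The sequences below show that core in some of the mRNAs discussed below, as the GGAC nearest the stop codon of the most abundant coding transcript of each gene. They were read from the GENCODE v44 transcripts lifted to GRCh37, are written 5′ to 3′ as cDNA on the strand of the mRNA, and have the 4 searched letters in capitals. SLC25A3, SLC25A5 and SLC25A6 were the mRNAs with the highest levels, SLC7A5 and SLC3A2 encode the chains of 1 amino acid transporter, and SLC1A4 and SLC25A23 are members whose groups did not overlap.
SLC25A3, chr12:98995312-98995341, plus strand, 3′ UTR: tcaaagcaaatgtGGACtgaatctgcttgt
SLC25A5, chrX:118605194-118605223, plus strand, 3′ UTR: gatgatgatgatgGGACtcaattgtatttt
SLC25A6, chrX:1505405-1505434, minus strand, 3′ UTR: tcctcaaccgtgcGGACcatcaaccttcga
SLC7A5, chr16:87866364-87866393, minus strand, 3′ UTR: aactgagggccagGGACccaggtgtgcctg
SLC3A2, chr11:62656167-62656196, plus strand, 3′ UTR: ttcagcctgacatGGACccactacccttct
SLC1A4, chr2:65248335-65248364, plus strand, 3′ UTR: agccgccagtcatGGACacagggcactgcc
SLC25A23, chr19:6441968-6441997, minus strand, 3′ UTR: acgtccaggtgagGGACccggagcccgtcc

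Counted from the first base of the stop codon to the A of the motif, the distance was 23 bases in SLC25A3, 190 in SLC25A5, 78 in SLC25A6, 200 in SLC7A5, 19 in SLC3A2, 72 in SLC1A4 and 6 in SLC25A23. All of these lie in the 3′ UTR, which was not so for every gene discussed below. The nearest GGAC lay in the coding sequence in SLC25A26 (-661), SLC38A9 (-142), SLC27A5 (-74) and SLC39A9 (-10), among others. Of 143 solute carrier genes with a matched leading coding transcript, 116 (81.1%) held GGAC within 200 bases of the stop codon, against 78.1% of 10118 genes of all kinds treated the same way. The median density was 3.65 GGAC per kilobase in the solute carrier transcripts and 3.62 in all. These letters are common, only the strand of the mRNA was searched, and a match is a description and not a methylated site. The start and end of the transcript in this annotation lay within 1 base of those in the files for 40 of the 143 genes, so lengths and the position of a 3′ end can differ from the model the authors counted.

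Levels of the solute carrier mRNAs covered a wide range. The mean over the 4 libraries was at least 10 FPKM for 61 genes, from 1 to 10 FPKM for 98 and below 1 FPKM for 25, with a median of 5.999 FPKM, and 154 of the 184 were above 0 in every library. A few genes held much of the sum, since the top 3 made up 19.5% of the summed solute carrier FPKM, the top 10 made up 45.4% and the top 20 made up 59.9%. Of the 8 genes with a mean of at least 100 FPKM, SLC25A3, SLC25A5 and SLC25A6 were mitochondrial carriers.

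**Figure D1:**
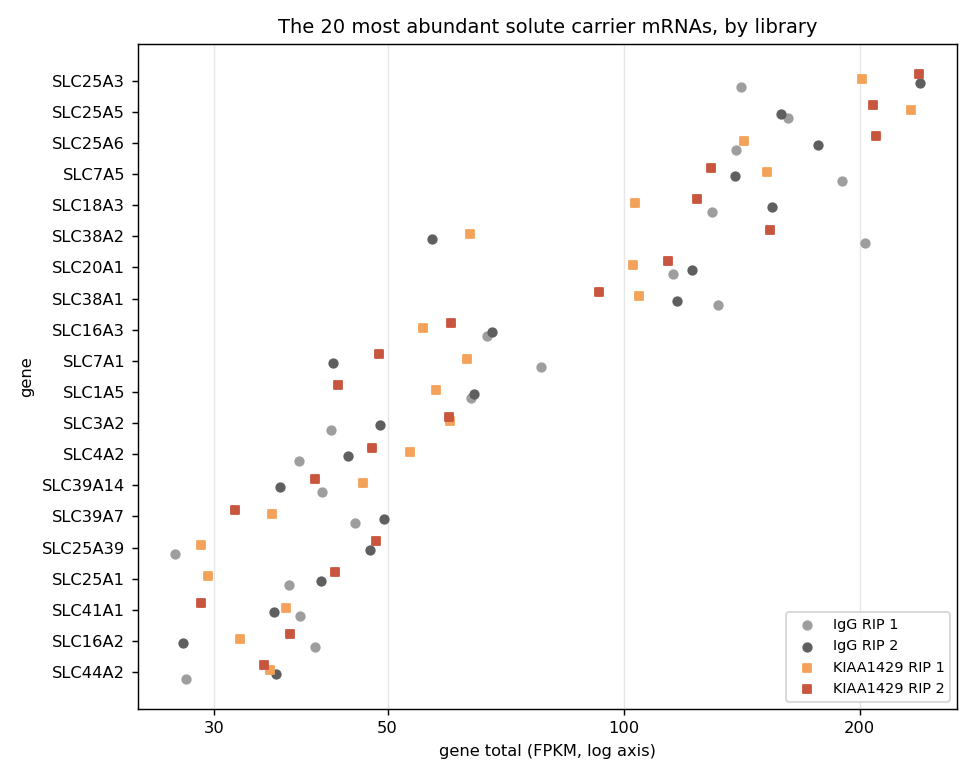
Gene totals in FPKM (log axis) of the 20 solute carrier genes with the highest mean, 1 point per library, with IgG RIP as grey circles and KIAA1429 RIP as coloured squares. SLC25A3, the phosphate carrier, reached 239 FPKM, and for SLC25A5 both KIAA1429 RIP points (233 and 208) lay to the right of both IgG RIP points (162 and 159).

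Of the 159 solute carrier genes with a mean of at least 1 FPKM, 0 were called higher and 0 lower in KIAA1429 RIP by limma (log2 fold change beyond 1 and Benjamini-Hochberg adjusted p under 0.05 over all gene totals), where the calls over 11361 gene totals were also 0, that is 0% in each direction. The lowest adjusted p of a solute carrier gene was 0.901. At an unadjusted p under 0.05, 4 were higher (2.52%, beside 3.17% of all gene totals) and 1 was lower (0.629%, beside 1.43%). The group means lay at least 2-fold apart for 11 higher (6.92%, beside 7.58%) and 10 lower members (6.29%, beside 6.14%). Both KIAA1429 RIP libraries lay above both IgG RIP libraries for 26 members (16.4%, beside 16.6%) and below both for 32 (20.1%, beside 15.2%). The share of members on the higher side was near the background, and the share on the lower side was 20.1% where the background was 15.2%, a difference that was not tested. The median log2 fold change was -0.09 for the members and 0.02 for all gene totals, and 43.4% of the members had a log2 fold change above 0, beside 51.4% of all gene totals, with 56.6% below 0, beside 48.6%. Leaving out IgG RIP replicate 1 raised the count at least 2-fold higher to 18, and leaving out KIAA1429 RIP replicate 2 raised the count at least 2-fold lower to 21. The shares of all gene totals in these runs are not given here.

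The difference between groups was about as large as that between libraries of 1 group. For the same 159 genes, the median absolute log2 difference was 0.45 between the IgG RIP libraries, 0.40 between the KIAA1429 RIP libraries and from 0.41 to 0.55 between libraries of different groups. Spearman's rho across these genes was 0.843 and 0.856 within the groups and from 0.811 to 0.872 between them, as a description of values that share cells and processing. Between the groups it was 0.848 and 0.872 for libraries with the same replicate number and 0.824 and 0.811 for the others. For a single gene, exact permutation of 4 libraries in groups of 2 cannot reach the threshold.

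**Figure D2:**
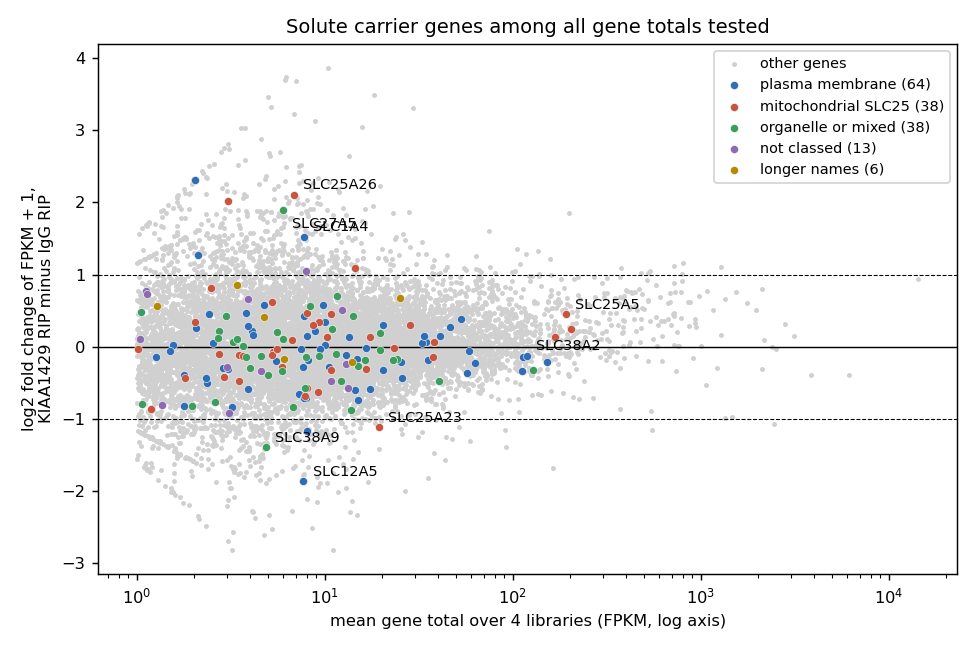
Log2 fold change of KIAA1429 RIP over IgG RIP on the log2(FPKM + 1) scale against the mean gene total in FPKM (log axis), with solute carrier genes coloured by class over all other tested genes in grey and dashed lines at a 2-fold difference. The solute carrier genes lie within the cloud of other genes, with a median of -0.09 beside 0.02 for all gene totals.

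By class, the summed level of the mitochondrial carriers had a higher mean in KIAA1429 RIP and that of the plasma membrane transporters a lower mean. The 38 SLC25 genes summed to 760 and 946 FPKM with IgG and to 887 and 1040 FPKM with KIAA1429, a ratio of means of 1.13. The 79 plasma membrane genes summed to 1510 and 1340 FPKM with IgG and to 1269 and 1329 FPKM with KIAA1429, a ratio of 0.911. Both KIAA1429 RIP sums were below both IgG RIP sums for the plasma membrane class, with 1340 and 1329 FPKM as the nearest libraries, and the groups overlapped for the SLC25 class. Transporters of other organelles summed to 469 and 538 FPKM with IgG and to 424 and 467 FPKM with KIAA1429, with 469 and 467 FPKM as the nearest libraries. The summed FPKM of all listed transcripts also had a higher mean in KIAA1429 RIP, and as a share of it the SLC25 genes were at 0.257% and 0.300% with IgG and at 0.263% and 0.306% with KIAA1429. The plasma membrane genes were at 0.511% and 0.425% of it with IgG and at 0.377% and 0.391% with KIAA1429. A sum of this kind is led by its most abundant members.

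Beside the shares of all gene totals with groups apart, 16.6% higher and 15.2% lower, the SLC25 class had 8 members with both KIAA1429 RIP libraries higher (21.1% of 38 tested) and 6 with both lower (15.8%), and a median log2 fold change of -0.02. Of the 64 plasma membrane genes tested, 11 stood apart higher (17.2%) and 15 lower (23.4%), with a median of -0.11. The class of other organelles had 2 higher (5.26% of 38 tested) and 7 lower (18.4%), with a median of -0.13. The difference between classes was not tested.

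**Figure D3:**
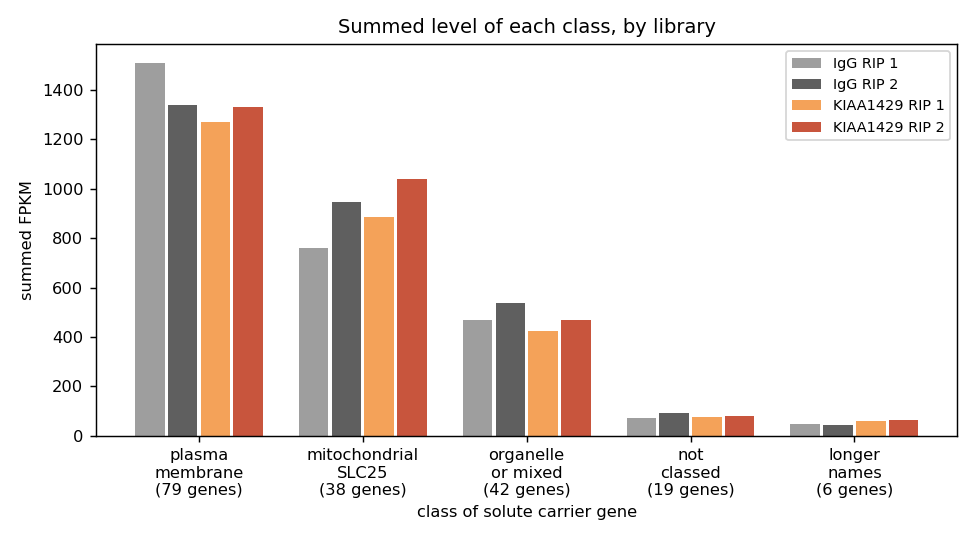
Summed FPKM of the solute carrier genes of each class, 1 bar per library, with IgG RIP in grey and KIAA1429 RIP in colour. The mitochondrial SLC25 bars run from 760 to 1040 FPKM with the groups overlapping, and the plasma membrane bars from 1269 to 1510 FPKM.

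Among the mitochondrial carriers, those for phosphate and adenine nucleotides had the highest levels. SLC25A3, which brings phosphate into the matrix, was at 141 and 239 FPKM with IgG and at 201 and 238 FPKM with KIAA1429. Its groups overlapped, as the lowest value was that of IgG RIP replicate 1 and the other three libraries were close together. SLC25A5, an ADP/ATP carrier, was at 162 and 159 FPKM with IgG and at 233 and 208 FPKM with KIAA1429. Here both KIAA1429 RIP libraries were higher, with a log2 fold change of 0.45 (SE 0.28, limma adjusted p = 0.998). SLC25A6, a close relative with the same exchange, was at 139 and 177 FPKM with IgG and at 142 and 210 FPKM with KIAA1429, with overlapping groups. SLC25A4, the form of heart and muscle, was low in every library, at 0.918 and 2.57 FPKM with IgG and at 2.06 and 2.64 FPKM with KIAA1429. These ADP/ATP carriers are closely related in sequence and have many processed pseudogenes, and the annotation places SLC25A6 on the part of chromosome X that chromosome Y shares, so how reads were divided among the copies is uncertain.

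Carriers for intermediates of metabolism were at middle levels. SLC25A1, which exports citrate for lipid synthesis, was at 37.4 and 41.1 FPKM with IgG and at 29.5 and 42.8 FPKM with KIAA1429. SLC25A11, which exchanges oxoglutarate for malate, was at 19.8 and 26.1 FPKM with IgG and at 16.9 and 30.2 FPKM with KIAA1429. SLC25A13, the aspartate/glutamate carrier of liver, was at 8.41 and 7.58 FPKM with IgG and at 12.1 and 8.95 FPKM with KIAA1429. Its groups did not overlap, but the nearest libraries of the groups were 8.41 and 8.95 FPKM.

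SLC25A26 and SLC25A23 had the largest differences among the mitochondrial carriers with coding transcripts whose groups stood apart. SLC25A26 carries S-adenosylmethionine, the methyl donor, into mitochondria, and was listed at 0 and at 5.89 FPKM with IgG and at 7.73 and 13.6 FPKM with KIAA1429. The IgG RIP libraries differed from each other by more than the nearest libraries of the groups did. Its transcript SLC25A26-201 was listed at 0 in both IgG RIP libraries and at 6.98 and 11.7 FPKM with KIAA1429, while SLC25A26-202 was at 0 and 5.89 FPKM and at 0.745 and 1.90 FPKM. So the IgG RIP signal of the gene was all in 202 and most of the KIAA1429 RIP signal was in 201. The adjusted p of 201 was 0.587 by limma over 23375 transcripts, the lowest of any solute carrier transcript. Transcript 201 was listed, and passed the filter of the fit, through its KIAA1429 RIP values alone. That p and its rank rest on this selection and do not measure a difference.

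SLC25A23, a calcium-regulated carrier of ATP-Mg and phosphate, was at 22.7 and 30.6 FPKM with IgG and at 9.42 and 14.4 FPKM with KIAA1429. Both IgG RIP libraries were higher, with a log2 fold change of -1.11 (SE 0.36, limma adjusted p = 0.998), and this was the member with an unadjusted p under 0.05 on the lower side. Its transcript SLC25A23-202 was at 16.9 and 25.8 FPKM with IgG and at 9.42 and 14.4 FPKM with KIAA1429, while SLC25A23-211 was at 4.55 and 4.83 FPKM and was listed at 0 in both KIAA1429 RIP libraries. SLC25A53, listed only as a transcript without a coding sequence, was at 1.38 FPKM and listed at 0 in IgG RIP, and at 3.91 and 6.96 FPKM with KIAA1429.

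SLC25A37 and SLC25A39 differed more between replicates than between groups. SLC25A37, which brings iron to mitochondria, was at 2.36 and 20.05 FPKM with IgG and at 11.9 and 23.8 FPKM with KIAA1429. SLC25A39, which imports glutathione, was at 26.8 and 47.5 FPKM with IgG and at 28.9 and 48.3 FPKM with KIAA1429. In both genes the replicate 2 library was the higher of its group.

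Outside mitochondria, transporters of amino acids had the highest summed level of any role. SLC7A5, the light chain of the carrier for large neutral amino acids, was at 190 and 139 FPKM with IgG and at 152 and 129 FPKM with KIAA1429. SLC3A2, the heavy chain that brings SLC7A5 to the cell surface, was at 42.4 and 48.9 FPKM with IgG and at 60.1 and 59.9 FPKM with KIAA1429. The groups overlapped for the light chain and stood apart, higher in KIAA1429 RIP, for the heavy chain (log2 fold change 0.39, SE 0.28, limma adjusted p = 0.998). With the top transcript of SLC3A2 alone, SLC3A2-201, the log2 fold change was -0.18, in the other direction. SLC7A11, the cystine and glutamate exchanger that uses the same heavy chain, was at 20.4 and 15.9 FPKM with IgG and at 24.5 and 20.6 FPKM with KIAA1429, where the nearest libraries were 20.4 and 20.6 FPKM.

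Carriers of glutamine and small neutral amino acids went both ways. SLC1A5, a glutamine carrier, was at 63.9 and 64.4 FPKM with IgG and at 57.6 and 43.2 FPKM with KIAA1429, with both KIAA1429 RIP libraries lower. SLC38A1, a sodium-coupled carrier of glutamine, was at 132 and 117 FPKM with IgG and at 105 and 93.1 FPKM with KIAA1429, also lower in both (log2 fold change -0.33, SE 0.28, limma adjusted p = 0.998). SLC1A4, which exchanges serine, alanine and cysteine, was at 1.40 and 6.71 FPKM with IgG and at 12.1 and 10.8 FPKM with KIAA1429. That gene had a log2 fold change of 1.53 (SE 0.61, limma adjusted p = 0.998), and its IgG RIP libraries differed from each other by more than the nearest libraries of the groups. SLC7A1, a carrier of arginine and lysine, was at 78.5 and 42.6 FPKM with IgG and at 63.2 and 48.7 FPKM with KIAA1429, with overlapping groups. SLC38A9, which senses arginine at the lysosome, was at 7.15 and 6.85 FPKM with IgG and at 0.567 and 4.93 FPKM with KIAA1429, so its KIAA1429 RIP libraries differed from each other more than the nearest libraries of the groups.

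Across the 22 amino acid transporters tested, whose classes include organelle members, 5 stood apart higher and 5 lower (22.7% each way, beside 16.6% higher and 15.2% lower of all gene totals), and the median log2 fold change was -0.13. The summed level was 851 and 628 FPKM with IgG and 640 and 677 FPKM with KIAA1429. The IgG RIP replicate 1 sum was the highest, and SLC38A2 made up 203 FPKM of it.

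SLC38A2, which encodes an amino acid carrier induced by starvation, was at 203 and 57.0 FPKM with IgG and at 63.7 and 154 FPKM with KIAA1429. The high and low libraries were split across both groups. The spread came from 1 transcript, SLC38A2-209, at 138 and 5.72 FPKM with IgG and at 4.29 and 88.6 FPKM with KIAA1429. The full-length SLC38A2-201 lay between 37.3 and 54.9 FPKM in the 4 libraries, with 54.9 and 37.3 FPKM with IgG and 41.5 and 51.6 FPKM with KIAA1429.

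SLC2A1, the glucose carrier of most cell types, was at 11.2 and 4.54 FPKM with IgG and at 8.12 and 6.16 FPKM with KIAA1429. SLC2A2, the glucose carrier of hepatocytes, lay between 0.356 and 1.07 FPKM and was below the level for a test. SLC2A3, the high-affinity form, was at 1.27 and 12.6 FPKM with IgG and at 1.09 and 17.2 FPKM with KIAA1429. Each group held 1 library near 1 FPKM and 1 above 12 FPKM, so the replicates differed far more than the groups.

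Among the lactate carriers, SLC16A3, which exports lactate from glycolytic cells, was at 67.0 and 67.9 FPKM with IgG and at 55.4 and 60.3 FPKM with KIAA1429. SLC16A1, the lactate carrier of most tissues, was at 26.4 and 16.0 FPKM with IgG and at 12.1 and 14.9 FPKM with KIAA1429. Both stood apart on the lower side, with log2 fold changes of -0.22 (SE 0.27) and -0.58 (SE 0.37) and a limma adjusted p of 0.998 each. The transcripts of SLC16A1 did not all follow the gene total. The noncoding SLC16A1-205 was at 11.1 and 7.97 FPKM with IgG and listed at 0 and at 2.25 FPKM with KIAA1429. The coding SLC16A1-207 was at 11.9 and 5.58 FPKM with IgG and at 11.5 FPKM and listed at 0 with KIAA1429, and the coding SLC16A1-201 was at 1.31 and 1.56 FPKM with IgG and listed at 0 and at 12.2 FPKM with KIAA1429. SLC16A1-207 alone gave a log2 fold change of -1.38, and the coding transcripts summed gave 0.26, in the other direction. Of the 18 sugar and monocarboxylate transporters tested, 6 stood apart lower (33.3%, beside 15.2% of all gene totals) and 0 higher (0%, beside 16.6%). These 6 were SLC16A1, SLC16A3, SLC16A13, SLC45A4, SLC5A3 and SLC5A6, and the role also takes in carriers of iodide and vitamins. The nearest libraries were 14.1 and 13.8 FPKM for SLC5A3, 16.0 and 14.9 FPKM for SLC16A1 and 2.98 and 2.80 FPKM for SLC45A4. They were 19.8 and 18.1 FPKM for SLC5A6, 12.6 and 9.63 FPKM for SLC16A13 and 67.0 and 60.3 FPKM for SLC16A3. Of the 18, 8 had a log2 fold change above 0 and 10 below. The difference from all gene totals was not tested.

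The chaperone of the lactate carriers, BSG, is no solute carrier by name, and was at 50.9 and 65.7 FPKM with IgG and at 88.4 and 101 FPKM with KIAA1429. Both KIAA1429 RIP libraries were higher, with a log2 fold change of 0.70 (SE 0.29, limma adjusted p = 0.998). It belonged to a list of 35 partners and relatives of solute carriers, of which 28 were listed and 27 tested. By limma 0 of the 27 were called in each direction, 2 had an unadjusted p under 0.05 on the higher side (7.41%, beside 3.17% of all gene totals) and 0 on the lower side (0%, beside 1.43%), and 6 stood apart each way (22.2%, beside 16.6% higher and 15.2% lower). The other gene with such a p was VDAC3, a pore of the outer mitochondrial membrane, at 21.5 and 15.3 FPKM with IgG and at 33.9 and 31.6 FPKM with KIAA1429. ATP1B1, a sodium pump subunit that sets the gradient many carriers use, went the other way, at 23.5 and 21.5 FPKM with IgG and at 11.2 and 14.3 FPKM with KIAA1429 (log2 fold change -0.78, SE 0.33, limma adjusted p = 0.998).

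Ion transporters were led by the phosphate importer SLC20A1, at 116 and 122 FPKM with IgG and at 103 and 114 FPKM with KIAA1429. Its groups stood apart by less than 2 FPKM at the nearest libraries. SLC12A2, which brings in sodium, potassium and chloride, was at 4.03 and 2.13 FPKM with IgG and at 4.22 and 4.75 FPKM with KIAA1429. Of the 22 ion transporters tested, 5 stood apart higher (22.7%, beside 16.6% of all gene totals) and 5 lower (22.7%, beside 15.2%).

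Metal transporters included zinc and iron carriers of liver. SLC39A14, which imports zinc and iron, was at 41.3 and 36.4 FPKM with IgG and at 46.5 and 40.4 FPKM with KIAA1429. SLC30A1, which exports zinc, was at 9.12 and 8.14 FPKM with IgG and at 8.79 and 6.36 FPKM with KIAA1429, and its groups overlapped as well. SLC40A1, the iron exporter ferroportin, was at 2.86 and 2.78 FPKM with IgG and at 1.91 and 1.78 FPKM with KIAA1429, with both lower (log2 fold change -0.43, SE 0.52, limma adjusted p = 0.998). SLC39A9, a zinc carrier of the secretory pathway, was at 15.9 and 19.3 FPKM with IgG and at 5.76 and 14.1 FPKM with KIAA1429. SLC39A4, the zinc importer of the intestine, was listed at 0 in both IgG RIP libraries and at 3.05 and 5.10 FPKM with KIAA1429, as transcripts without a coding sequence only. A transcript was in the tables only where the mean of a group reached 0.5 FPKM, so a gene that is at 0 in a group was listed because of the other group. Of the 22 metal transporters tested, 3 stood apart higher (13.6%, beside 16.6% of all gene totals) and 4 lower (18.2%, beside 15.2%).

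Among carriers of lipids and bile acids, SLC27A5, which joins coenzyme A to bile acids in liver, was at 1.83 and 2.08 FPKM with IgG and at 10.7 and 9.43 FPKM with KIAA1429. The replicates of each group were close and the groups stood far apart, with a log2 fold change of 1.90 (SE 0.44), an unadjusted limma p of 0.00363 and the lowest adjusted p of any member, 0.901. Its listed transcripts were SLC27A5-204 and SLC27A5-206, which together span chr19:59009700-59010642 on GRCh37, a stretch shorter than a kilobase. SLC27A5-204 was at 1.28 and 0.177 FPKM with IgG and at 5.61 and 9.43 FPKM with KIAA1429, and the noncoding SLC27A5-206 was at 0.547 and 1.90 FPKM and at 5.06 FPKM and listed at 0. So the closeness of the gene totals in KIAA1429 RIP was made up of different transcripts in each library. SLC44A3, of the choline transporter family, was at 2.01 and 1.96 FPKM with IgG and at 1.04 and 0.427 FPKM with KIAA1429. SLC45A4, counted with the sugar and monocarboxylate transporters above, was at 2.98 and 5.61 FPKM with IgG and at 2.80 and 0.926 FPKM with KIAA1429. Its groups stood just apart, and the noncoding SLC45A4-206 held most of its total. The bile acid importer SLC10A1 was not analysed here.

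SLC18A3, the vesicular acetylcholine transporter of neurons, was among the 8 most abundant members, at 130 and 155 FPKM with IgG and at 103 and 124 FPKM with KIAA1429. Both KIAA1429 RIP libraries were lower (log2 fold change -0.32, SE 0.29, limma adjusted p = 0.998). CHAT, the acetylcholine-making enzyme in whose gene SLC18A3 lies, was at 5.09 and 7.63 FPKM with IgG and at 2.73 and 4.69 FPKM with KIAA1429. The level of SLC18A3 was therefore more than 10-fold that of its host gene in every library on the per-length scale.

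Among the single transcripts, 327 of the solute carrier genes had a mean of at least 1 FPKM, and 0 were called higher and 0 lower by limma, as for all 23375 transcripts tested (0% in each direction). At an unadjusted p under 0.05, 9 were higher (2.75%, beside 3.03% of all transcripts) and 8 lower (2.45%, beside 2.33%). The group means lay at least 2-fold apart for 67 higher (20.5%, beside 19.9%) and 66 lower (20.2%, beside 20.3%), and the libraries did not overlap for 44 higher (13.5%, beside 15.2%) and 45 lower (13.8%, beside 14.5%). A log2 fold change above 0 was found for 46.8% (beside 50.4%) and below 0 for 53.2% (beside 49.6%). Each of these shares was near its background. Of the 488 listed transcripts, 101 had a mean under 0.5 FPKM with IgG alone and 96 in KIAA1429 RIP alone, and 97 were above 0 in 1 library only.

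Transcripts agreed less between libraries than gene totals did. Spearman's rho across the 327 transcripts was 0.480 between the IgG RIP libraries and 0.412 between the KIAA1429 RIP libraries, where the gene totals gave 0.843 and 0.856. Between libraries of different groups it lay from 0.444 to 0.495. The same fall was present over all transcripts, with 0.487 and 0.541 within the groups.

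Named transcripts show what lies under that fall. In SLC39A14, transcript SLC39A14-204 was at 34.99 and 34.95 FPKM with IgG and at 35.1 FPKM and listed at 0 in KIAA1429 RIP. SLC39A14-203 was at 1.97 and 1.03 FPKM with IgG and at 0.167 and 25.6 FPKM with KIAA1429, so the library that lacked 204 was the library that held 203, while the gene total lay between 36.4 and 46.5 FPKM throughout. In SLC25A6, the noncoding SLC25A6-202 was at 42.4 FPKM with IgG replicate 1 and at most 0.554 FPKM in the other libraries. The coding SLC25A6-201 was at 96.4 and 176 FPKM with IgG and at 142 and 210 FPKM with KIAA1429.

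In SLC2A4RG, a regulator of the glucose transporter gene SLC2A4 and no carrier, the noncoding SLC2A4RG-207 was at 23.9 FPKM with KIAA1429 replicate 1, at 1.01 FPKM with KIAA1429 replicate 2 and listed at 0 in both IgG RIP libraries. The gene total, at 19.7 and 18.4 FPKM with IgG and at 34.8 and 27.7 FPKM with KIAA1429, stood apart higher, while the coding SLC2A4RG-201 was at 13.2 and 10.7 FPKM and at 5.41 and 13.04 FPKM. SLC29A1, a nucleoside carrier, was at 20.9 and 34.3 FPKM with IgG and at 26.8 and 19.6 FPKM with KIAA1429, and its transcript SLC29A1-201 was at 10.5 and 10.6 FPKM and at 5.08 and 2.70 FPKM, with both KIAA1429 RIP libraries lower. These genes and SLC25A3 had the largest gaps between the log2 fold changes of their own transcripts, from 2.64 to 4.19, where the median gap over 21 genes with several transcripts of at least 5 FPKM was 0.59.

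SLC25A3 has alternative exons that give the phosphate carrier of muscle or of most other tissues, and the listed transcripts hold both. They are shown by their first 30 bases, in lower case throughout, because they set SLC25A3-201 and SLC25A3-217 apart from SLC25A3-202.
Exon of SLC25A3-201 and SLC25A3-217, chr12:98989505-98989534 of an exon that ends at 98989626: agtacagttgtgaatttggctccgcgaagt
Exon of SLC25A3-202, chr12:98989211-98989240 of an exon that ends at 98989335: agcagtatagctgtgactatggatctggca

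The exons are coding, on the plus strand of GRCh37, with 122 and 125 bases. SLC25A3-217 was at 87.6 and 173 FPKM with IgG and at 130 and 142 FPKM with KIAA1429, and SLC25A3-201 lay between 18.5 and 22.5 FPKM. SLC25A3-202, with the longer exon known from heart and skeletal muscle, was at 0.118 and 3.20 FPKM with IgG and listed at 0 and at 17.9 FPKM with KIAA1429. The value of 17.9 FPKM came from a single library, and the groups overlapped. SLC25A3-206, a short transcript, was at 22.2 FPKM with KIAA1429 replicate 1 and at most 0.253 FPKM in the other libraries.

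The solute carrier transcripts differed in length between classes. The leading coding transcripts of the SLC25 genes had a median coding length of 957 bases and those of the plasma membrane genes 1620 bases, and the median whole length was 2891 and 4128 bases. Across the 143 genes, Spearman's rho of the log2 fold change was -0.08 with transcript length and -0.08 with the density of GGAC, and across 10118 genes of all kinds it was -0.25 and -0.11. These are descriptions across genes of the same 4 libraries, without a test, since genes are not replicates.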

How the data were processed

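RIP-seq was analysed in 4 libraries from HCCLM3 cells, 2 for KIAA1429 and 2 for IgG, grouped by their labels. The authors deposited FPKM per transcript on GRCh37/hg19. The submitters' processing notes name Bowtie2 2.1.0 and the methods name HISAT2, and the tool that gave FPKM is not given in the sources used here. The files hold no counts, so the count test named in the methods was not run and depth is unknown. FPKM was summed per gene name. Features whose mean over the 4 libraries reached 1 FPKM were fitted in limma 3.58.1 under R 4.3.3 after adding 1 FPKM and taking log2 (lmFit and eBayes, variance trend on, two-sided p adjusted by Benjamini and Hochberg's method across every feature in the fit), and fold changes on this scale understate those of low genes. The fit was run on simulated data, where recovery of changes was required only at a spread much smaller than that of these data. Its power at the spread of these data is not given here. Alternatives were pseudocounts, filters, scalings, the replicate block, transcript choices and each library left out. Members, roles and lists were chosen with earlier results of these data known. Named members are the 10 most abundant, the 5 highest and 5 lowest log2 fold changes with groups apart, a list of 29 (27 listed, 26 tested), and the 5 with the largest gap between transcripts. Some items under this rule are not reported here. Other named genes were chosen after their values were seen or come from the partner and marker lists. Of 488 transcripts, 477 matched GENCODE v44 by identifier. Whether counting used strand is not stated, so SLC7A6OS, SLC44A3-AS1 and other overlapping genes are uncertain.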

Additional observations from a re-analysis of the deposited data

How the results depend on the processing

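The call of 0 solute carrier genes and 0 transcripts in each direction held under every alternative run that kept all 4 libraries. The calls over all features were also 0 in these runs, except for gene totals fitted with the replicate block. In the transcript fits of these runs, the lowest adjusted p of a member was 0.503 by limma, without the variance trend. At an unadjusted p under 0.05, the 4 higher genes became 2 with a pseudocount of 0.01 FPKM, 2 with a filter at 5 FPKM and 7 with only the top transcript of each gene, and the 1 lower gene became 2 with protein_coding transcripts only and 2 with the top transcript. The genes at least 2-fold apart became 18 higher and 20 lower with no filter, 4 and 2 with a filter at 5 FPKM, where fewer genes are tested, and 17 higher with the top transcript. For these counts and those at an unadjusted p, the shares of all gene totals at the same settings are not given here. The SLC25 median of -0.0232 became 0.089 with the filter at 5 FPKM, -0.0351 with protein_coding transcripts only and 0.0779 with the top transcript, and the cause was not tested.

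With the replicate number as a replicate block, 8 solute carrier genes were higher and 5 lower at an unadjusted p under 0.05, and the block with protein_coding transcripts only, chosen after seeing the data, gave 6 lower. The shares of all gene totals at that p under the block are not given here, so these counts are not a result about the members. The lowest adjusted p of a solute carrier gene under the block was 0.171, and the calls over all gene totals became 12 higher and 1 lower, where they were 0 and 0 without it. The labels do not say what a shared number marks. The deviations of same-numbered libraries from their group means correlated at r = 0.187 across 11361 gene totals and 0.0299 across 23375 transcripts. Across those gene totals, Spearman's rho between the groups was 0.885 and 0.869 for same-numbered libraries and 0.868 and 0.833 for the others. Whether the number marks a shared step was not tested, and the main fit leaves it out.

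Leaving out each library in turn, where the lone library of a group is assumed to vary like the others, gave 2 to 6 higher and 0 to 6 lower genes at an unadjusted p under 0.05, with 0 lower without IgG RIP replicate 2 and 6 lower without KIAA1429 RIP replicate 2. It gave 11 to 18 genes at least 2-fold higher and 8 to 21 lower. Genes with groups apart came to 47 to 52 higher and 53 to 62 lower, as fewer libraries have to agree. The medians ran from -0.1515 to 0.1783 for SLC25, from -0.2473 to -0.025 for organelle or mixed members and from -0.1227 to -0.0025 for all members. For plasma membrane members they ran from -0.1507 to -0.0726. The median of all gene totals also moved, from -0.0824 without IgG RIP replicate 2 to 0.0861 without IgG RIP replicate 1.

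Of 534 values of 39 named genes under the alternatives, 506 kept their direction and 28 turned it, with no adjusted p below 0.171. The filters, the replicate block and a fit without the variance trend leave the log2 fold change of a gene as in the main fit. Their values could not turn, so the 506 overstate how stable the directions were. The top transcript alone turned SLC3A2 to -0.1784, SLC39A14 to -2.582, SLC25A39 to -0.6342 and SLC2A4RG to -0.4427 on the log2 scale, protein_coding transcripts only turned SLC16A1 to 0.2598 and SLC2A4RG to -0.4427, and quantile normalization turned SLC25A6 to -0.0153. With a library left out, the log2 fold change ran from -0.1261 to 0.6308 for SLC25A3, from -0.1402 to 0.4171 for SLC25A6, from -0.4332 to 0.0162 for SLC7A5, from -1.0289 to 0.7875 for SLC38A2, from -0.4922 to 0.3753 for SLC7A1, from -0.5934 to 0.5455 for SLC2A1, from -1.4076 to 1.7131 for SLC2A3, from -0.3855 to 0.0253 for SLC30A1, from -0.3998 to 0.1242 for SLC25A1, from -0.0994 to 0.7988 for SLC25A4, from -0.4128 to 0.3903 for SLC25A11, from -0.2359 to 2.4107 for SLC25A37, from -0.3366 to 0.4659 for SLC25A39 and from -0.559 to 0.1271 for SLC29A1. These genes had overlapping groups, and other named genes kept their direction without any 1 library. Depth is unknown from FPKM, so values near 0 cannot be set against a counting floor.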

Other observations

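Some solute carrier genes outside the rule for named genes had groups apart, and those given here were chosen after their values were seen. SLC24A1, an exchanger of sodium for calcium and potassium known from photoreceptors, was at 0.976 and 0.683 FPKM with IgG and at 3.22 and 3.57 FPKM with KIAA1429. SLC41A2, a magnesium transporter, was at 6.35 and 3.46 FPKM with IgG and at 9.72 and 12.03 FPKM with KIAA1429. SLC23A2, which imports vitamin C, was at 7.10 and 8.17 FPKM with IgG and at 12.2 and 11.6 FPKM with KIAA1429. On the lower side, SLC25A28, a mitochondrial iron carrier, was at 11.5 and 11.3 FPKM with IgG and at 7.04 and 6.99 FPKM with KIAA1429, and SLC39A7, a zinc carrier of the endoplasmic reticulum, was at 45.4 and 49.5 FPKM with IgG and at 35.6 and 31.9 FPKM with KIAA1429. None of these 5 passed the adjusted threshold by limma, where the lowest adjusted p of any solute carrier gene was 0.901.

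The shares of all gene totals with groups apart were 16.6% higher and 15.2% lower. Of 9 carriers of nucleosides and nucleotide sugars tested, 0 were higher (0%) and 2 lower (22.2%) in both KIAA1429 RIP libraries. Of 13 carriers of organic ions and vitamins tested, 1 was higher (7.69%) and 3 lower (23.1%), and of 9 carriers of lipids, bile acids and choline, 1 was higher and 1 lower (11.1% each). SLC12A5, the potassium and chloride exporter of neurons, had the lowest log2 fold change of all members tested, and its groups overlapped, at 5.03 and 18.1 FPKM with IgG and listed at 0 and at 7.67 FPKM with KIAA1429. Only 1 transcript of SLC12A5 was listed, SLC12A5-219, which spans chr20:44650338-44652220 on GRCh37, so the values are those of this transcript alone.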
